A study of Procambarus virginalis with 6 samples.

Results

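In hemocytes of marbled crayfish (*Procambarus virginalis*), 4 features were higher in every *Dnmt1* KD animal than in every control animal by at least 1.5 times. They were chosen among the 4966 features with a mean level of at least 10 CPM, of 72982 features counted in all. A feature is an entry of the gene annotation to which transcripts were counted, and CPM stands for counts per 1000000 unique molecular identifiers (UMIs, tags that mark single transcripts) of a library. The UMIs of all cells with 100 to 2000 features were summed per animal, and a feature was a member when its lowest KD level was at least 1.5 times its highest control level. The 4 members made up 0.0805% of the features considered. The same threshold in the opposite direction was met by 15 features (0.302%). The levels themselves chose the members, so the levels are described here and the difference between the groups is not tested on them.

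The control animals Ctrl1, Ctrl2 and Ctrl3 received double-stranded RNA (dsRNA) against GFP, a jellyfish protein that crayfish lack, and the KD animals KD1, KD2 and KD3 received dsRNA against *Dnmt1*. Hemolymph of all 6 animals was taken 28 dpi, and its hemocytes went through the droplet method of 10X Genomics. The marbled crayfish reproduces by parthenogenesis and its animals form a single all-female clone, so the groups shared 1 genetic background. The dsRNA was given into the hemolymph, so the knockdown was not limited to hemocytes.

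Dnmt1 is the methyltransferase that copies CpG methylation onto the new DNA strand after replication, so that a methylation pattern passes to daughter cells. In arthropods most of this methylation lies in the bodies of genes, and its bearing on transcript levels is less well understood than that of promoter methylation in vertebrates. Hemocytes are the circulating immune cells of the crayfish and comprise hyaline, semigranular and granular cells, which take part in phagocytosis, melanization and the release of antimicrobial peptides. They arise in the hematopoietic tissue, and a subset of them is a source of neuronal precursors in the adult brain of crayfish.

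The files name features by scaffold and gene model and give no gene names, so the role of a member is not given and the level of *Dnmt1* was not analysed here. For the same reason no hemocyte marker was looked up, and cell clusters are called by number. All 4 members, and 85.6% of the 4966 features, have identifiers that end in a running number and the word covsplit. Identifiers that differ only in the running number are called pieces of a gene model here, although the meaning of the ending is not given in the sources used here.

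The libraries differed in ways that touch every member. The summed UMIs ranged from 599999 to 1810251 in the controls, and were 1328880 in KD1, 188578 in KD2 and 2413375 in KD3. A level of 10 CPM corresponded to 24.1 UMIs in KD3 and to 1.89 UMIs in KD2. KD2 therefore held only 4 to 6 UMIs of each member, 20 in all. Of the barcodes of Ctrl2, Ctrl3, KD1 and KD2, 6.08%, 36.6%, 25.5% and 48.4% also occurred in another library, against 1 barcode in KD3 and 0 in Ctrl1. Only 25.1% of the Ctrl1 barcodes opened with a 7-base sequence found among the KD3 barcodes, against 96.9% to 97.4% in the 4 libraries that share barcodes. The 20 most abundant features took 27.6% to 56.2% of the UMIs of a library, with the highest shares in KD3 (56.2%) and Ctrl1 (48.9%), which lowers the CPM of other features in these libraries. Because the values are sums over cells, more cells of a type and more RNA per cell cannot be told apart in them.

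WNGS01113158.1473602_1_covsplit was the most abundant member, with a mean of 34.2 CPM and 308 UMIs in all. Its levels were 4.97, 15.7 and 20 CPM in Ctrl1, Ctrl2 and Ctrl3, from 9, 28 and 12 UMIs. They were 61.7, 31.8 and 70.9 CPM in KD1, KD2 and KD3, from 82, 6 and 171 UMIs. The groups did not overlap, and KD2 lay closer to the controls than to the other KD animals. The mean was 13.6 ± 7.74 CPM in controls and 54.8 ± 20.4 CPM in the KD group (SD, n = 3 each), a ratio of 4.04. Exact Poisson 95% intervals, which cover counting error only, were 49.1 to 76.6 CPM in KD1 and 60.6 to 82.3 CPM in KD3, above the interval of every control. The interval of KD2 reached from 11.7 to 69.3 CPM and overlapped those of Ctrl2 (10.5 to 22.7 CPM) and Ctrl3 (10.3 to 34.9 CPM). Without KD2 the lowest KD level was 3.09 times the highest control level, against 1.59 times with it.

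WNGS01002990.227976_0_covsplit had the largest ratio of lowest KD to highest control level, 2.05. It was at 1.10, 1.12 and 6.67 CPM in Ctrl1 to Ctrl3, from 2, 2 and 4 UMIs, and at 15.8, 31.8 and 13.7 CPM in KD1, KD2 and KD3, from 21, 6 and 33 UMIs. Ctrl1 and Ctrl2 were nearly without it, and Ctrl3 lay between them and the KD animals. The ratio of the group means was 6.89 (2.96 ± 3.21 CPM against 20.4 ± 9.92 CPM; SD, n = 3 each). The intervals of all 3 KD animals lay above those of Ctrl1 and Ctrl2, and none lay above that of Ctrl3 (1.82 to 17.1 CPM).

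In WNGS01167840.2551405_0_covsplit, Ctrl3 was likewise the highest control. Its levels were 2.76, 2.25 and 10.0 CPM in Ctrl1, Ctrl2 and Ctrl3, from 5, 4 and 6 UMIs. In KD1, KD2 and KD3 they were 15.8, 21.2 and 22.8 CPM, from 21, 4 and 55 UMIs. The groups did not overlap, and the interval of Ctrl3 (3.67 to 21.8 CPM) overlapped that of every KD animal. Group means were 5.0 ± 4.33 CPM and 19.9 ± 3.66 CPM (SD, n = 3 each), a ratio of 3.98.

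WNGS01164858.2205181_0_covsplit had the smallest ratio of group means, 2.17. The controls lay together at 8.29, 8.43 and 8.33 CPM, from 15, 15 and 5 UMIs. The KD animals were at 16.6, 21.2 and 16.6 CPM, from 22, 4 and 40 UMIs. Although the groups did not overlap, the counting intervals of all 9 pairs of a KD and a control animal did. The mean was 8.35 ± 0.0738 CPM in the controls and 18.1 ± 2.68 CPM in the KD group (SD, n = 3 each). The controls differed from each other by far less than their own counting intervals (4.64 to 13.7 CPM in Ctrl1 and 2.71 to 19.4 CPM in Ctrl3).

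**Figure D1:**
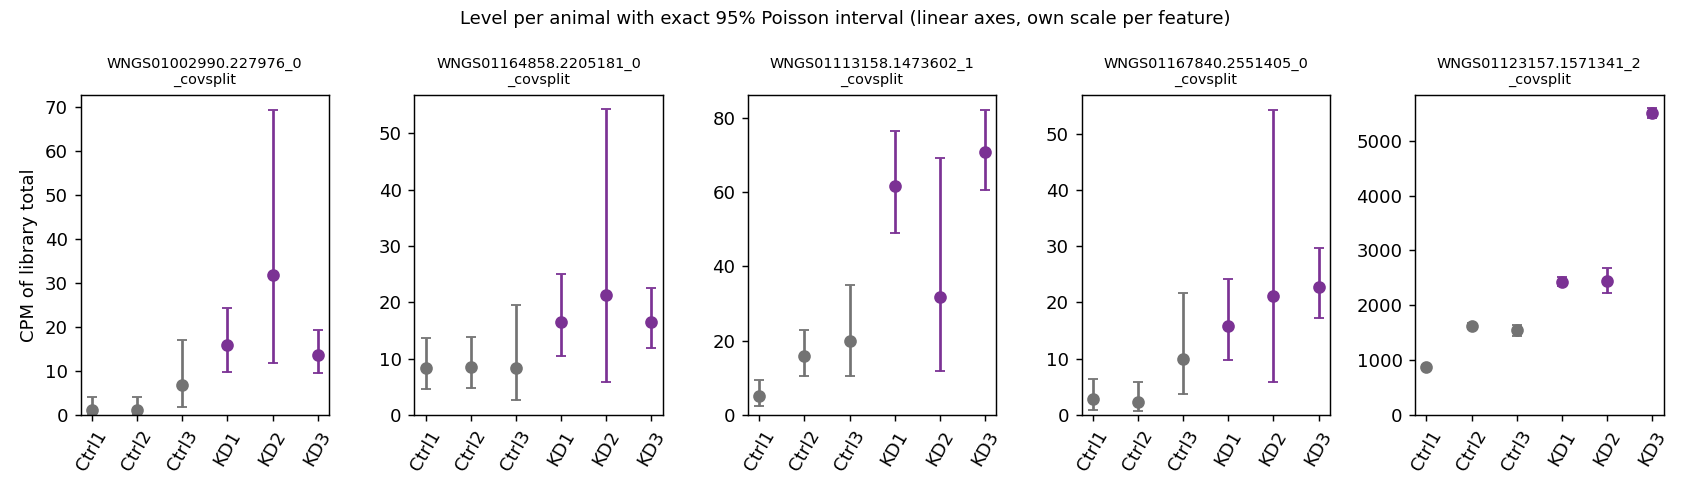
Level in CPM of the 4 members and of the abundant feature just under the threshold (rightmost panel) in each control (grey) and KD (purple) animal, with exact 95% Poisson intervals as bars and a linear axis of its own per panel. Every KD point lies above every control point, and among the members the bars of the lowest KD and the highest control animal overlap in each panel.

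For none of the 4 members did the interval of the lowest KD animal lie apart from that of the highest control animal. Separate intervals were found for 7 of the 9 pairs of animals in WNGS01113158.1473602_1_covsplit, 6 in WNGS01002990.227976_0_covsplit, 5 in WNGS01167840.2551405_0_covsplit and 0 in WNGS01164858.2205181_0_covsplit. The choice of members favours separate intervals, and such pairs were not counted over all features. These numbers are therefore no support for a difference between the groups. Ctrl3 was the highest control in 3 members, and KD1, KD2 and KD3 were each the lowest KD animal in at least 1 member. The members together held 572 of 8120260 UMIs (0.00704%). Their summed level was 17.1, 27.5 and 45 CPM in Ctrl1 to Ctrl3 and 110, 106 and 124 CPM in KD1 to KD3.

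Most members were low among the features considered. Their mean levels ran from 11.7 to 34.2 CPM, against a median of 25.2 CPM over the 4966 features. Only WNGS01113158.1473602_1_covsplit exceeded that median. Of the 1373 features with a mean of at least 50 CPM none was a member, whereas 8 of the 15 features lower in every KD animal had such a mean. Members made up 0.0805% of all 4966 features, and 4 are too few to read their absence there as a trait. Groups that did not overlap at all, at any ratio, were found for 36 features with higher KD levels (0.725%) and 80 with lower KD levels (1.61%). Of the 36, 10 had a mean of at least 50 CPM, and the share of such features was close to the same at 10 to 20 CPM (0.760%), at 20 to 50 CPM (0.679%) and above (0.728%). Among the 36, KD2, the shallowest library, was the highest KD animal in 19. How often KD2 was the highest KD animal over all 4966 features was not counted, so no excess can be read from this.

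**Figure D2:**
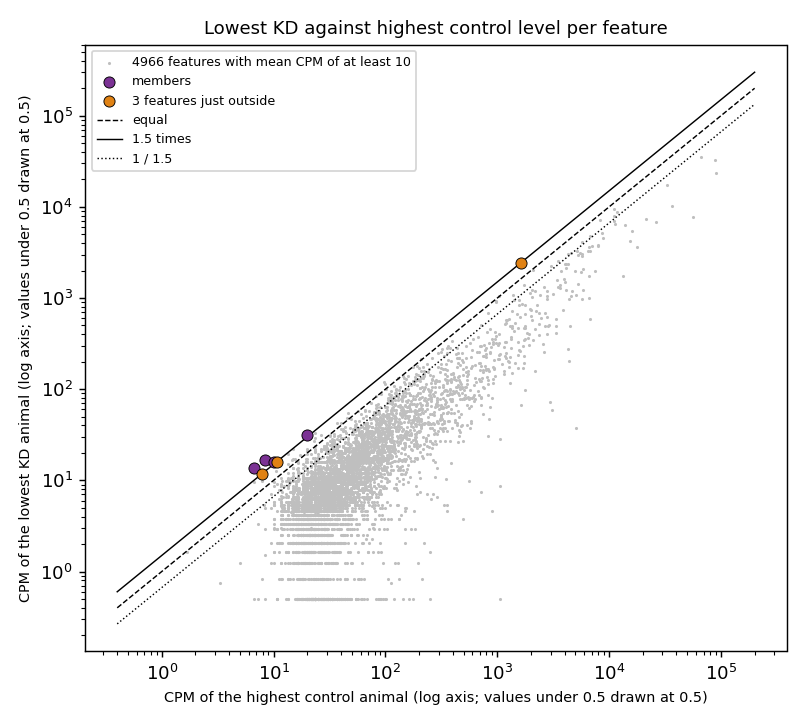
CPM of the lowest KD animal against CPM of the highest control animal for the 4966 features with a mean of at least 10 CPM (grey), both on log axes, with lines at equality (dashed), 1.5 times (solid) and its inverse (dotted). The 4 members (purple) sit above the solid line at the low end of the axes, and the 3 features just outside it are drawn in orange, 1 of them far up both axes.

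WNGS01167840.2551405_0_covsplit (1.58) and WNGS01113158.1473602_1_covsplit (1.59) lay close above the threshold of 1.5 times. The next member was WNGS01164858.2205181_0_covsplit (1.96). Just outside lay WNGS01123157.1571341_2_covsplit (1.499), WNGS01135237.1639771_0_covsplit (1.49) and WNGS01168420.2590156_1_covsplit (1.47). At a ratio of 1.2 the number rose to 16 features (0.322%), of which 12 had fewer than 10 UMIs in KD2. The other 4 had 10 UMIs or more there, as did 1585 of all 4966 features, so low counts in KD2 were common among all features. The 12 added features had means from 11.4 CPM upward, and the 16 lay on 15 scaffolds.

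WNGS01123157.1571341_2_covsplit was the exception in abundance. With a mean of 2403 CPM and 22371 UMIs it ranked 63 among the 4966 features. Its levels were 870.6, 1619 and 1545 CPM in Ctrl1 to Ctrl3 and 2428, 2445 and 5511 CPM in KD1 to KD3. KD1 and KD2 were nearly equal, and KD3 was well above both. Group means were 1345 ± 412 CPM and 3461 ± 1775 CPM (SD, n = 3 each), a ratio of 2.57. It was the only 1 of the 16 features whose intervals were separate in all 9 pairs. The order of its animals depended on the scaling. With library sizes normalized by the trimmed mean of M values (TMM), which allows for a few dominant features, Ctrl1 was at 1815 CPM, KD1 at 1569 CPM, KD2 at 1815 CPM and KD3 at 12950 CPM, so that KD3 alone was clearly above the highest control.

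The other 2 features on its scaffold followed a different order of animals. WNGS01123157.1571334_6_covsplit was at 3365, 184 and 732 CPM in Ctrl1 to Ctrl3 and at 594, 10091 and 10112 CPM in KD1 to KD3. WNGS01123157.1571334_5_covsplit was at 562, 39.3 and 96.7 CPM in the controls and at 77.5, 673 and 888 CPM in the KD animals, in the same order. In both, KD1 lay within the range of the controls.

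The remaining pair just outside resembled the members in abundance. WNGS01135237.1639771_0_covsplit was at 4.97, 10.7 and 10.0 CPM in Ctrl1 to Ctrl3 and at 17.3, 15.9 and 19.1 CPM in KD1 to KD3. WNGS01168420.2590156_1_covsplit was at 2.76, 7.87 and 6.67 CPM in the controls and at 18.1, 31.8 and 11.6 CPM in the KD animals. Each rested on 6 UMIs or fewer in KD2.

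Pieces that share a gene model with a member gave another reading of the same model, which the choice had not used. WNGS01113158.1473602_0_covsplit, a piece of the model of the most abundant member, was itself at 32.6, 146 and 192 CPM in Ctrl1 to Ctrl3 and at 127, 202 and 127 CPM in KD1 to KD3. The groups overlapped, and 1 of 3 KD animals was above the highest control, with a ratio of means of 1.23. WNGS01113158.1473602_2_covsplit, the last piece of that model, was at 55.8, 24.7 and 75.0 CPM in the controls and at 71.5, 117 and 152 CPM in the KD animals. Here 2 of 3 KD animals were above the highest control, with a ratio of means of 2.19. The groups thus overlapped in both other pieces of the model, each of which was more abundant than the member.

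For WNGS01002990.227976_0_covsplit the only other piece with more than 2 UMIs in any animal, WNGS01002990.227976_2_covsplit, was at 1.10, 0.562 and 13.3 CPM in Ctrl1 to Ctrl3 and at 6.02, 15.9 and 7.04 CPM in KD1 to KD3. As in the member, Ctrl3 was the highest control, but here it exceeded KD1 and KD3. WNGS01167840.2551405_1_covsplit was at 4.97, 8.43 and 3.33 CPM in the controls and at 9.03, 5.30 and 2.07 CPM in the KD animals, with overlapping groups. WNGS01164858.2205181_0_covsplit had no other piece in the files. The 4 members lay on 4 different scaffolds, so none was a neighbour of another.

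Members were detected in few cells and nearly always with 1 UMI, and no cell held more than 3 UMIs of a member. A UMI of any member was found in 31 of 5318, 47 of 1196 and 27 of 622 cells of Ctrl1, Ctrl2 and Ctrl3 (0.583%, 3.93% and 4.34%). It was found in 118 of 881, 18 of 635 and 263 of 2869 cells of KD1, KD2 and KD3 (13.4%, 2.83% and 9.17%). Unlike the summed levels, these shares overlapped between the groups, since KD2 lay below Ctrl2 and Ctrl3. Shares of this kind move with depth, and the median depth of a cell was 281, 1140 and 738.5 UMIs in Ctrl1 to Ctrl3 and 1258, 223 and 596 UMIs in KD1 to KD3. Cells with a member were also deeper than the others of their animal, for example 1787 against 1184 UMIs at the median in KD1 for cells with 1 member and with none. With cells thinned to 150 UMIs the highest share for any member was 1.22%, that of WNGS01113158.1473602_1_covsplit in KD3, and such shares are too near a single UMI per cell to be read as a difference.

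WNGS01113158.1473602_1_covsplit was the member found in the most cells overall. It was detected in 9, 26 and 12 cells of Ctrl1, Ctrl2 and Ctrl3 and in 72, 6 and 161 cells of KD1, KD2 and KD3. As shares these were 0.169%, 2.17% and 1.93% against 8.17%, 0.945% and 5.61%. Cells with UMIs of at least 2 different members numbered 15, 1 and 20 in KD1, KD2 and KD3 and 0 in each control. The members were chosen for low levels in the controls, so these numbers are no separate reading of the groups. As no hemocyte type that should lack the members could be named, the share that free RNA in the droplets would give was not measured.

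To see which cells held the members, the cells of all 6 animals were clustered together without the members among the variable features. This gave 3 clusters, numbered after the clusters of Ctrl1 that they matched. Cluster 0 held 75.6% to 84.2% of the cells of an animal, cluster 1 held 1.36% to 12.1% and cluster 2 held 9.99% to 23.0%. In Ctrl1 alone, a further small cluster was found, and 228 of its cells fell into cluster 0 in the joint data. The match was looser for joint cluster 2, which held 446 cells of cluster 2 and 267 cells of cluster 0 of the Ctrl1 clustering. In the clustering of Ctrl1 alone, cluster 0 was led by WNGS01021324.680489_28_covsplit, cluster 1 by WNGS01166011.2446490 and cluster 2 by WNGS01063966.1054011_0_covsplit.

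Most member UMIs lay in cluster 0. The share was 83.9%, 77.6% and 88.9% in Ctrl1 to Ctrl3 and 84.2%, 95% and 76.6% in KD1 to KD3, a mean of 84.4% (SD 6.94, n = 6), and the groups overlapped. Cluster 0 held 54.6% to 76.0% of all UMIs of an animal, and in every animal its share of member UMIs was higher than its share of all UMIs. The 20 most abundant features took 56.7% to 77.1% of the UMIs of cluster 2, against 23.6% to 40.9% in cluster 0, which lowers the CPM of other features in cluster 2. The part of this in the order of the clusters was not tested.

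WNGS01113158.1473602_1_covsplit showed the clearest order of clusters. Summed over the KD animals it was at 88.1 CPM in cluster 0 (interval 76.7 to 100.7) and at 31.1 CPM in cluster 2 (22.3 to 42.2). Summed over the controls it was at 14.4 CPM in cluster 0 (10.4 to 19.4) and at 4.64 CPM in cluster 2 (1.51 to 10.8). Cluster 0 was above cluster 2 in each of the 6 animals. The KD sum was above the control sum in both clusters, with intervals that did not meet and that leave out the spread between animals. These UMIs also chose the member, so the difference is no independent reading. Of the 41 KD UMIs in cluster 2, 35 came from KD3, 6 from KD1 and 0 from KD2. In cluster 1 the intervals overlapped (6.0 to 56.4 CPM from 4 UMIs in KD, 1.28 to 38.2 CPM from 2 UMIs in controls), so no difference was detectable there at this depth.

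Summed over animals, WNGS01002990.227976_0_covsplit was at 18.5 CPM in cluster 0 of the KD animals (13.5 to 24.8) and at 2.05 CPM in that of the controls (0.753 to 4.47). Intervals of such sums leave out the spread between animals, and the same UMIs chose the members. Ctrl3 alone was at 8.77 CPM in cluster 0 (2.39 to 22.5), an interval that overlapped that of every KD animal. In cluster 2 this member had 13 UMIs in the KD animals (9.85 CPM) and 0 in the controls, which allows up to 3.42 CPM at the upper exact bound. Of these 13 UMIs, 12 came from KD3. WNGS01167840.2551405_0_covsplit was at 25.9 against 3.76 CPM in cluster 0, and at 10.6 against 3.71 CPM in cluster 2, where the intervals overlapped. By animal, Ctrl3 was at 13.2 CPM and KD1 at 14.2 CPM in cluster 0. For this member cluster 0 was above cluster 2 in 4 of the 6 animals, and for each other member in all 6. The order was reversed in Ctrl2 (0.763 against 6.96 CPM) and in KD1 (14.2 against 29.8 CPM). WNGS01164858.2205181_0_covsplit was at 20.2 against 9.92 CPM in cluster 0, and it was the member with the largest share of its UMIs in cluster 1 (7.92%, or 8 of 101). There it was at 22.0 CPM in the KD animals and 21.2 CPM in the controls, from 4 UMIs each.

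**Figure D3:**
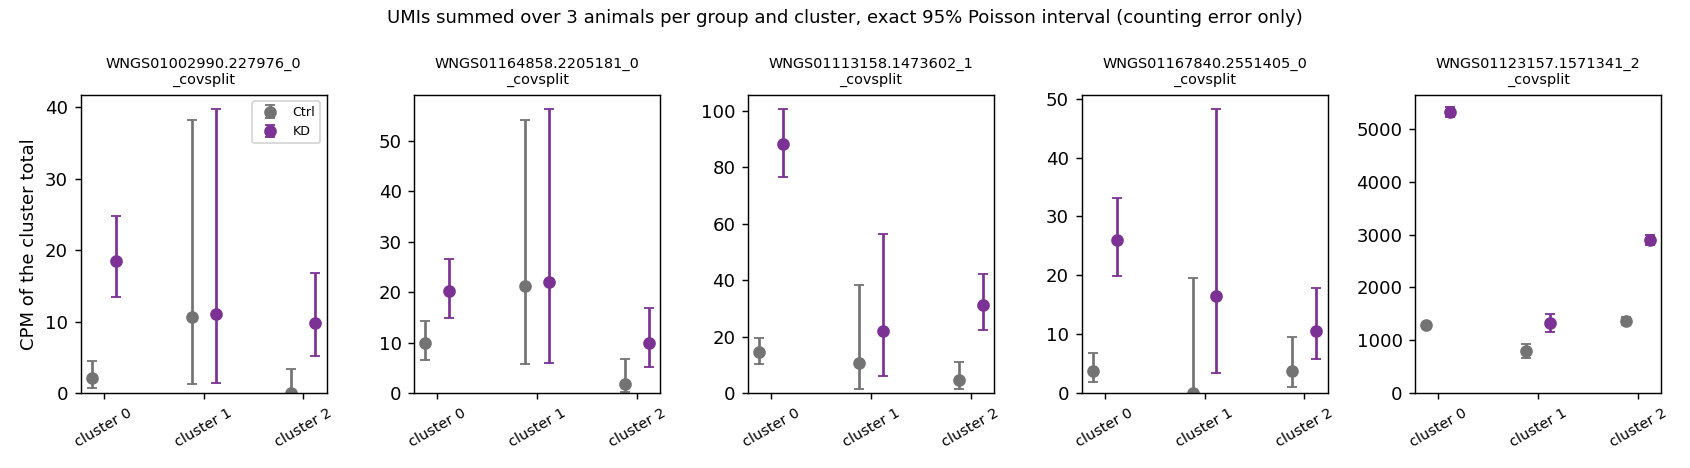
CPM in clusters 0, 1 and 2 of the 4 members and of WNGS01123157.1571341_2_covsplit (rightmost panel), from UMIs summed over the 3 control (grey) and the 3 KD (purple) animals, with exact 95% Poisson intervals as bars that leave out the spread between animals. In cluster 0 the KD point lies above the control bar in every panel, and in cluster 1 the control and KD bars overlap for every member.

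Within cluster 0 alone, the 4 members kept the order by which they were chosen, with every KD animal above every control animal. Cluster 0 held 76.6% to 95% of the member UMIs of an animal, so this order was largely set by the choice. The share of all features with this order within cluster 0 was not counted. The ratio of lowest KD to highest control level was 2.48 for WNGS01113158.1473602_1_covsplit, 1.73 for WNGS01002990.227976_0_covsplit, 1.44 for WNGS01164858.2205181_0_covsplit and 1.08 for WNGS01167840.2551405_0_covsplit. For WNGS01113158.1473602_1_covsplit the levels in cluster 0 were 6.92, 19.1 and 19.7 CPM in Ctrl1 to Ctrl3 and 74.8, 48.8 and 101.7 CPM in KD1 to KD3. These are largely the same UMIs as those of the choice and are no independent reading. Over all cells the ratios were 1.59, 2.05, 1.96 and 1.58 in the same order of members, so the ratio was larger within cluster 0 for 1 member and smaller for the other 3. Cluster 2 took 44.3% of the UMIs of KD3 against 15.2% to 29.0% in the other animals, and its part in the levels of the members was not tested. The abundant WNGS01123157.1571341_2_covsplit was at 5322 against 1289 CPM in cluster 0 and at 2891 against 1361 CPM in cluster 2, KD sum against control sum. In cluster 1 the groups overlapped, at 1003, 291 and 398 CPM in Ctrl1 to Ctrl3 and 340, 793 and 6706 CPM in KD1 to KD3, and 181 of the 241 KD UMIs there came from KD3.

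The members did not all withstand other settings. With TMM library sizes, WNGS01113158.1473602_1_covsplit (ratio 1.57) and WNGS01002990.227976_0_covsplit (2.04) still met the threshold, and WNGS01167840.2551405_0_covsplit fell to 1.36. WNGS01164858.2205181_0_covsplit lost its separation under TMM, at 17.3 CPM in Ctrl1 against 10.7 CPM in KD1, with 1 of 3 KD animals above the highest control. Without the 20 most abundant features in the library total the ratios were 1.69, 2.26, 1.51 and 1.41 in the same order of members. Leaving out barcodes found in more than 1 library, which removed 56.2% of the UMIs of Ctrl3 and 44.5% of those of KD1, gave ratios of 1.91, 1.80, 1.07 and 1.09. WNGS01113158.1473602_1_covsplit and WNGS01002990.227976_0_covsplit thus met the threshold under each of these 3 settings. With a minimum of 200 features per cell all 4 members met the rule, and with libraries thinned to the UMIs of KD2 1 of the 4 did.

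The choice was also repeated on 2 control and 2 KD animals at a time and read in the pair of animals left out, which gives the same measure in animals that the choice had not used. Over the 9 pairs that can be left out, 1456 choices were made, 16 to 488 per pair, and 285 of them (19.6%) were higher in the left-out KD animal than in the left-out control. Over all features considered, weighted by the same numbers, the share was 28.4%. Most choices came from the pairs with KD3, at 176, 488 and 421 with Ctrl1, Ctrl2 and Ctrl3. Of these, 40.3%, 4.30% and 9.26% were higher in KD3, against 49.9%, 13.4% and 7.94% of all features. With KD1 or KD2 left out, 16 to 144 features were chosen per pair, and 27.1% to 74.4% were higher in the left-out KD animal. The chosen features exceeded all features in 3 of the 9 pairs. With Ctrl2 and KD1 left out, 74.4% of 39 chosen features were higher in KD1, against 60.3% of all features. With Ctrl3 and KD1 left out, it was 27.1% of 144 chosen features against 62.4%. The share over all features ranged from 7.94% to 87.7% with the pair left out, so that the pair of animals set much of it. The 9 choices share animals and are given as a description.

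**Figure D4:**
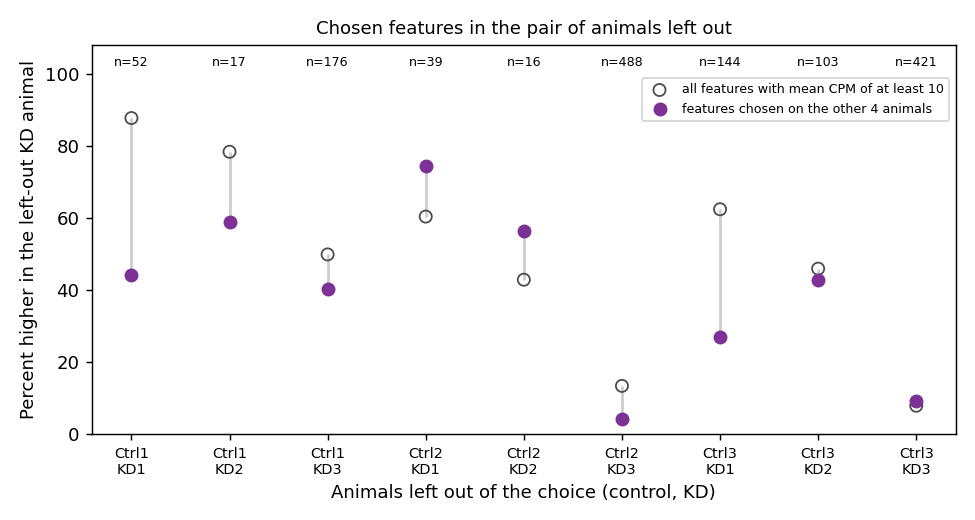
Percentage of features higher in the left-out KD animal than in the left-out control animal (vertical axis) for each of the 9 pairs of animals left out (horizontal axis), for features chosen on the other 4 animals (filled, their number n above) and for all features with a mean of at least 10 CPM in those 4 (open). The filled points lie above the open ones in 3 of 9 pairs.

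KD3 limited the choice most. It was the lowest KD animal for 81.6% of the 4966 features, KD2 for 11.1% and KD1 for 7.35%. Ctrl2 was the highest control for 49.3%, Ctrl3 for 39.4% and Ctrl1 for 11.3%. Without KD3, 112 features met the rule, and without Ctrl3 94 did, against 4 with all animals. All 4 members were among them in both cases, as leaving out an animal cannot lower the ratio of lowest KD to highest control level. Ctrl1, whose barcodes stood apart, was the highest control of no member, and without it the 4 ratios of lowest KD to highest control level were the same. Without Ctrl3 the log2 ratio of group means was 4.20 against 2.78 for WNGS01002990.227976_0_covsplit and 2.99 against 1.99 for WNGS01167840.2551405_0_covsplit. Without KD2 the count was 6, and it held 3 of the 4 members. WNGS01002990.227976_0_covsplit was not among them, since its mean level then fell below 10 CPM.

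In a test over all features on the summed UMIs, the quasi-likelihood test of edgeR called 0 of 7024 features at a Benjamini-Hochberg adjusted p under 0.05 (0%), and 120 had an unadjusted p under 0.05. All 4 members were among the features tested. DESeq2 called 0 of 6978 features, with 163 at an unadjusted p under 0.05. The median dispersion of the test was 0.296, a measure of the spread between animals of a group. The members thus stand as features whose animals did not overlap in level, without a call from a test that weighs this spread over all features.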

How the data were processed

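The data are single-cell transcript counts of hemocytes from 3 control (dsGFP) and 3 *Dnmt1* KD animals sampled 28 dpi, grouped by their labels. The deposited matrices hold whole UMI counts, without normalization, that the authors made with Cell Ranger, version 7.0.0 per the file headers and 4.0.0 per the submitters' processing notes; the other deposited tables list features and barcodes. The genome build is not given in the sources used here.

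Cells with 100 to 2000 features were kept, which removed 5 to 2760 barcodes per library, and UMIs were summed per animal and scaled to CPM of the library total. Doublets were not removed, and the mitochondrial filter was not applied because features carry no names. The level of *Dnmt1* was therefore not analysed here. Intervals are exact (Poisson, 95%) and cover counting error only. Reads of near-identical features may have been split between them.

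The members and lists were chosen with earlier results of these data known. Features named were the members, the 3 features just inside and the 3 just outside the threshold, those with the largest ratio or mean level, and for each cluster the 2 members with the largest share of their UMIs there. Neighbouring pieces of a gene model and scaffold neighbours were named after their values were seen.

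Clusters came from Seurat 5.3.0 (R 4.3.3), with the members left out of the variable features. Clusters were matched to those of Ctrl1 by the Ctrl1 cells they held. Summed counts were tested with edgeR 4.0.16 (TMM, filterByExpr), and with DESeq2 1.42.0 as an alternative. The edgeR step was also run on simulated data, whose spread between animals was smaller than the median dispersion of 0.296 found here. That run therefore does not show whether features with counts as low as those of the members could be called. Other alternatives changed the feature minimum, the scaling, the threshold, the mean level, the depth and the animals or barcodes included. The ratios of single members without shared barcodes, and those without the 20 most abundant features, were added after seeing the data. The labels do not say in which batch a library was made, so the spread between animals may be partly technical.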

Additional observations from a re-analysis of the deposited data

How the results depend on the processing

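The number of members moved with nearly every setting. It was 7 with a minimum of 200 features per cell, 11 with TMM library sizes, 12 without the 20 most abundant features in the total, 8 with the mean over cells of CPM per cell, 28 with libraries thinned to the UMIs of KD2, 16 at 1.2 times and 1 at 2 times. It was 0 at a mean of at least 50 CPM, at a mean of at least 100 CPM and with at least 10 UMIs in every KD library. Using only Ctrl2, Ctrl3, KD1 and KD2 gave 176. Of the 4 members, 4 remained with the 200-feature minimum, 2 with TMM, 3 without the 20 most abundant features, 3 with the mean over cells and 1 with thinned libraries. Leaving out 1 animal at a time gave 6 to 112 (14 without Ctrl1, 18 without Ctrl2, 94 without Ctrl3, 25 without KD1, 6 without KD2 and 112 without KD3). With fewer animals the ratio of the rule is easier to meet, which holds alike for each of these counts. The cause of the spread among them was not tested. Taking all barcodes gave 3, and leaving out barcodes of more than 1 library gave 6, 2 of them among the 4.

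The count of edgeR calls was 0 under the other normalization, the filter on mean CPM, the minimum of 200 features and DESeq2 and with each animal left out in turn, and 14, all lower in KD, without a filter on low counts. The replicate numbers did not pair the animals (correlations of same-numbered deviations of -0.17, 0.09 and 0.10), and a fit with the replicate number as a block called 0 features, with 146 at an unadjusted p under 0.05. The share of choices higher in the left-out KD animal was 20.2% to 21.8% under its 3 alternatives, and the share of member UMIs in cluster 0 was 82.3% to 86.6%. Among single features, WNGS01135237.1639771_0_covsplit, just outside the threshold, reversed to a log2 ratio of -0.41 without barcodes of more than 1 library, against 1.03. The cause was not tested. Depth limits the members most in KD2.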

Other observations

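The barcodes with fewer than 100 features entered only the count of members over all barcodes. They held 662068 UMIs in Ctrl1, 71027 in KD2, 74577 in KD3 and fewer in the other libraries. Each member had 0 to 2 UMIs in them per library. In Ctrl1, WNGS01002990.227976_0_covsplit and WNGS01164858.2205181_0_covsplit had 2 UMIs each and the other members 0. In KD2, WNGS01164858.2205181_0_covsplit and WNGS01167840.2551405_0_covsplit had 2 UMIs each, WNGS01113158.1473602_1_covsplit had 1 and WNGS01002990.227976_0_covsplit 0. The abundant WNGS01123157.1571341_2_covsplit was at 751 CPM in these barcodes of Ctrl1 (497 UMIs), 1774 CPM in those of KD2 (126 UMIs) and 2306 CPM in those of KD3 (172 UMIs), in the same order as among the kept cells of these animals.

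On 3 of the scaffolds that carry a member, other features had every KD animal above every control, which over all 4966 features was the case for 36 (0.725%). On WNGS01113158, 3 others of the 215 with a mean of at least 10 CPM did so. WNGS01113158.1461767 was at 65.2, 204 and 208 CPM in Ctrl1, Ctrl2 and Ctrl3 and at 263, 302 and 214 CPM in KD1, KD2 and KD3. WNGS01113158.1462142_0_covsplit was at 0, 14.6 and 10.0 CPM in the controls and at 22.6, 31.8 and 16.6 CPM in the KD animals. WNGS01113158.1462504_0_covsplit was at 19.9, 14.1 and 20 CPM in the controls and at 26.3, 21.2 and 24.0 CPM in the KD animals. On WNGS01164858, 1 other of 231 did so: WNGS01164858.2230960_0_covsplit was at 21.0, 21.4 and 23.3 CPM in the controls and at 29.3, 31.8 and 23.6 CPM in the KD animals. On WNGS01167840, 1 other of 62 did so: WNGS01167840.2568378 was at 9.39, 5.62 and 15 CPM in the controls and at 19.6, 74.2 and 17.0 CPM in the KD animals. That scaffold also holds WNGS01167840.2551381, which was among the leading features of cluster 1 in Ctrl1. These features were named after their values were seen.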
